A study of Homo sapiens with 12 samples.

Results

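The collagen and laminin genes described here are 55 of the 58302 genes in the table, chosen because their symbol names a numbered collagen chain (COL, a number, A, a number) or a laminin alpha, beta or gamma chain (LAMA, LAMB or LAMC and a number). They comprised 44 collagen chains and 11 laminin chains. The laminins, the collagen IV chains, COL15A1 and COL18A1 formed the 19 basement membrane chains, and the remaining 36 collagens formed the other chains. Values were in FPKM (fragment counts divided by gene length and library depth), from RNA sequencing of 4 human cell lines with 3 libraries each, 12 libraries in all. BxPC-3 and CFPAC-1 are established pancreatic cancer lines, here the parental, gemcitabine (GEM)-sensitive cells. The GEM-resistant BxPC-3-GR was selected from BxPC-3, and CFPAC-1-GR from CFPAC-1, by repeated exposure to rising GEM concentrations. Each parental line gave 1 resistant line, so a difference between a pair rests on 1 selection. The sample records call the morphology of BxPC-3-GR mesenchymal and that of the other lines epithelial. They name 1 medium for all lines, while the study's methods name a different medium for CFPAC-1. Nothing says that the libraries of a line came from separate cultures, so p values measure the spread between these libraries, which may be technical.

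Laminins are secreted heterotrimers of an alpha, a beta and a gamma chain that polymerize on the cell surface and start the basement membrane, the sheet on which epithelia rest. LAMA3 and LAMB3 are chains of laminin-332, the laminin of epithelial attachment, which binds integrins and, with the transmembrane collagen COL17A1 and the anchoring fibril collagen COL7A1, ties an epithelium to the tissue beneath. Collagen IV chains assemble into the network of the basement membrane, most widely as trimers of COL4A1 and COL4A2 and in some epithelia as trimers that contain COL4A5 and COL4A6. Fibrillar collagens such as COL1A1, COL3A1 and COL5A1 build the interstitial matrix, which in pancreatic tumors is deposited largely by fibroblasts and stellate cells.

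Promoter sequences are shown for the collagen IV pairs because their levels separated the lines, and for LAMA3 and LAMB3 because these chains of 1 trimer had opposite signs between the parental lines. Of the 55 genes, 41 had a promoter in the RefSeq table (GRCh38.p14). COL4A1 and COL4A2 are transcribed away from each other on chromosome 13 from starts with 126 bases between them, and COL4A6 (1 of its 2 starts in the table) and COL4A5 on chromosome X from starts with 379 bases between them. The whole interval between the COL4A1 and COL4A2 starts (chr13:110307158-110307283, plus strand) and the 250 bases before the start of COL4A5 (chrX:108439588-108439837, plus strand) are given with CCAAT and GGGCGG in capitals on either strand. The 250 bases before the table's start of LAMA3 (chr18:23872770-23873019, plus strand) and before LAMB3 (chr1:209651375-209651624, minus strand, 1 of its 3 starts in the table) are given with TGANTCA in capitals. The start used for LAMA3 is internal, 183577 bases from the first base of the gene in the deposited table, and that for LAMB3 is 1092 bases from it.
COL4A1 and COL4A2: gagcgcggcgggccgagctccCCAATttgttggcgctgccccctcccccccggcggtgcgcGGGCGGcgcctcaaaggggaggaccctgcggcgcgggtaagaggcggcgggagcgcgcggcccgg
COL4A5: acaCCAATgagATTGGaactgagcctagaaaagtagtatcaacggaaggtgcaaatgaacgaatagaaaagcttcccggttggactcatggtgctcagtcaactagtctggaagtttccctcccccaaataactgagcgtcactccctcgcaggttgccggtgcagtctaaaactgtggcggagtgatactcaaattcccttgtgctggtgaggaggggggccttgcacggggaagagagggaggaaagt
LAMA3: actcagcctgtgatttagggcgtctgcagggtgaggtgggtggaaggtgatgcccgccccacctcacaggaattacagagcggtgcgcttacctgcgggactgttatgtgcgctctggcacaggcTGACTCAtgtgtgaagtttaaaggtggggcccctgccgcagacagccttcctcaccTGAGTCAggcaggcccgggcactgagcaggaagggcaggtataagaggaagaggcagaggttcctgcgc
LAMB3: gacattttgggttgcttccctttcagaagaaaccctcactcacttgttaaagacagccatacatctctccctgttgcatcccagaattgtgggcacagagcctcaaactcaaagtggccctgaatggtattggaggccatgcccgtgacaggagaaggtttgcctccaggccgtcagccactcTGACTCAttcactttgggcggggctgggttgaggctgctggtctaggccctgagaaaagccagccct
The collagen IV interval held CCAAT at base 22 and GGGCGG at base 62, counted from its first base. The COL4A5 promoter held CCAAT at base 4 and its reverse complement at base 12. TGANTCA occurred in LAMA3 at bases 126 and 182 and in LAMB3 at base 184. Among all 35116 promoters of the table, 6.57% held TGANTCA, 32% CCAAT and 42.6% GGGCGG in the 250 bases before the start, searched on both strands with overlaps allowed. Of the 41 promoters of collagen and laminin genes, 3 held TGANTCA, 13 held CCAAT and 27 held GGGCGG. These are matches of letters only, with no measurement of binding.

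Steps between low values implied from 12600000 to 25200000 mapped fragments per library. 1 fragment was then worth 0.00202 to 0.0251 FPKM over these genes and libraries, and levels near these values stand for single fragments. Epithelial markers (6 genes, EPCAM, CDH1 and keratins) summed to between 838 and 2910 FPKM over the 12 libraries. Of the 8 fibroblast and stellate cell markers, POSTN was listed at 0 in every library, DCN did not exceed 0.00776 FPKM, and all 8 together summed to between 0.591 and 3.81 FPKM, most of it ACTA2 in the CFPAC-1 lines. The 4 endothelial markers summed to less than 1 FPKM (0.391 to 0.911). The 6 mesenchymal markers summed to 51.9 to 57.5 FPKM in BxPC-3, 37.4 to 39.5 in BxPC-3-GR, 122 to 158 in CFPAC-1, and in CFPAC-1-GR they summed to between 89.5 and 102. VIM, the intermediate filament of mesenchymal cells, averaged 6.59 FPKM in BxPC-3 and 0.813 in BxPC-3-GR, which the records call mesenchymal. CDH2, the mesenchymal cadherin, averaged 1.99 and 5.40 FPKM, and FN1, or fibronectin, 5.30 and 9.10 FPKM in these lines. SNAI2, the largest part of the sum in both, went the other way, with 41.2 FPKM in BxPC-3 and 23.0 FPKM in BxPC-3-GR.

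Of the 55 genes, 25 reached a mean of at least 1 FPKM in 1 or more lines, and these are described with their values. The other 30 did not exceed 0.798 FPKM in any library, the highest being COL8A2 in BxPC-3. They included 7 basement membrane chains (COL15A1, COL4A3, COL4A4, LAMA1, LAMA2, LAMA4 and LAMB4) and 23 other chains. COL1A2, COL2A1 and COL3A1, chains of the main interstitial collagens, were among them, with highest library values of 0.0104, 0.0141 and 0.129 FPKM. COL11A2, COL6A5 and COL9A1 were listed at 0 in all 12 libraries. The rest of the 23 were COL10A1, COL11A1, COL14A1, COL19A1, COL20A1, COL21A1, COL23A1, COL24A1, COL25A1, COL26A1, COL28A1, COL5A2, COL5A3, COL6A3, COL6A6, COL8A2 and COL9A3. Chains with a mean of at least 1 FPKM numbered 14 in BxPC-3, 15 in BxPC-3-GR and 21 in each CFPAC-1 line. In all 4 lines, 10 chains did so: LAMA3, LAMA5, LAMB1, LAMB3, LAMC1, COL4A5, COL4A6, COL7A1, COL8A1 and COL17A1. At a mean of 10 FPKM or more, 7 or 8 basement membrane chains were counted in every line, whereas the other chains at this level numbered 3 in BxPC-3, 4 in BxPC-3-GR, 2 in CFPAC-1 and 0 in CFPAC-1-GR.

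**Figure D1:**
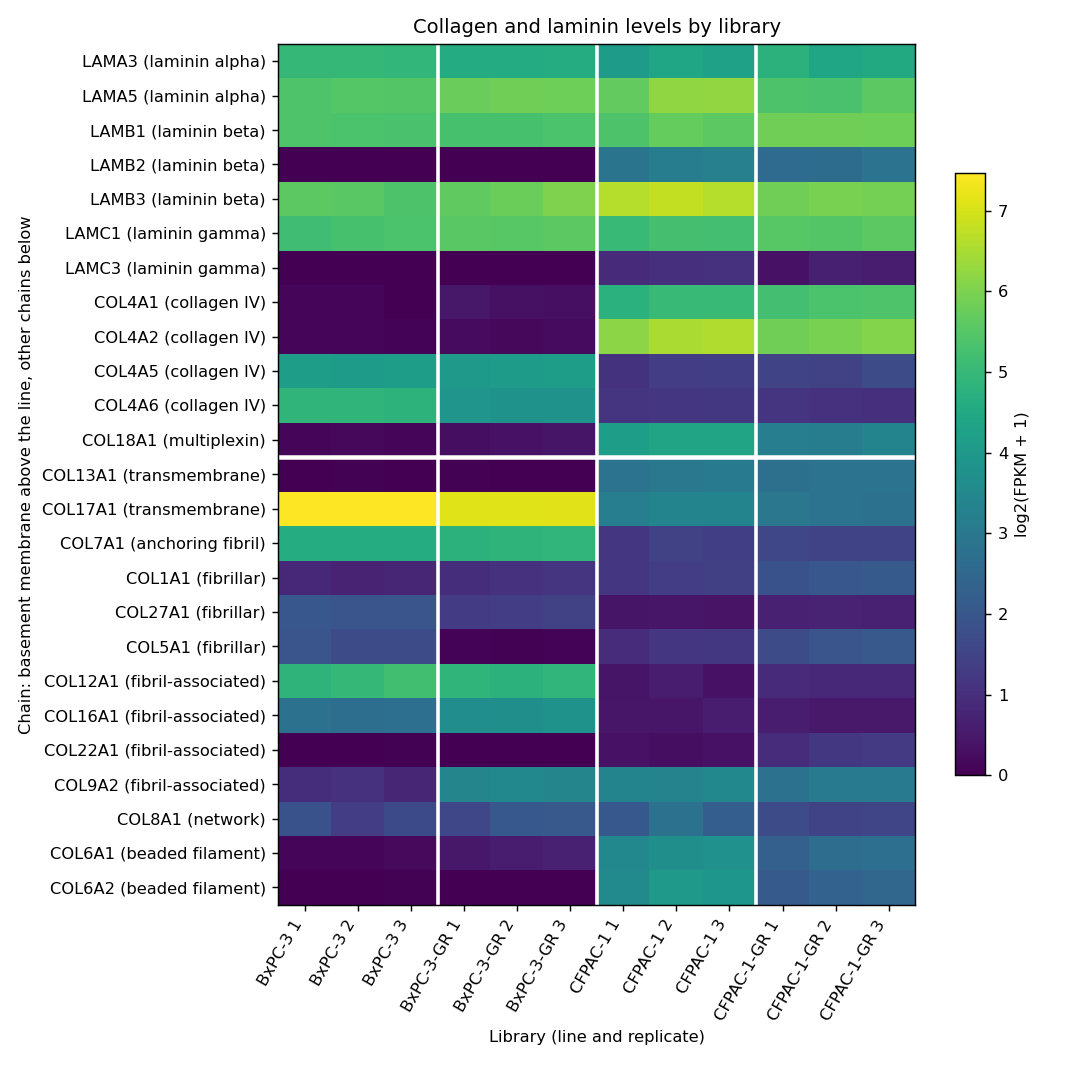
Level of the 25 collagen and laminin genes that reached a mean of 1 FPKM in at least 1 line, as log2(FPKM + 1) (color) in each of the 12 libraries (columns, by line and replicate), with basement membrane chains above the white line and other chains below it. LAMB1 was at a like level in every library (38.0 to 56.5 FPKM), COL17A1 was high in the BxPC-3 lines (136 to 176 FPKM) and COL4A1 and COL4A2 were high in the CFPAC-1 lines (26.3 to 93.8 FPKM).

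The parental lines were compared first, to separate what distinguishes the lines from what accompanied resistance. CFPAC-1 expressed the widespread collagen IV pair, the collagen VI chains COL6A1 and COL6A2, and LAMB2, all of which BxPC-3 nearly lacked. BxPC-3 expressed the epithelial attachment collagens COL17A1 and COL7A1, the COL4A5 and COL4A6 pair and the fibril-associated COL12A1 and COL16A1 at higher levels. Tests were made with limma on log2(FPKM + 1), and genes were called significantly differentially expressed (SDE) at a Benjamini-Hochberg adjusted p below 0.05 over all genes tested and an absolute log2FC above 1. Of the 23 chains with a mean of at least 1 FPKM over the 6 libraries, 9 were higher in CFPAC-1 and 7 were lower, or 69.6%, while 44.5% of the 11842 genes tested were SDE (19.8% higher and 24.7% lower). The median log2FC was 0.53 over the 23 chains and -0.10 over all genes tested. By the adjusted p alone, 12 chains were higher and 9 lower, against 84.2% of all genes in either direction. Libraries of the lines did not overlap for 21 of the 23 chains, as for 85.6% of all genes tested. Across all genes the log2FC increased with GC content (rho = 0.628 by Spearman across 11821 genes). After correction for GC content and gene length, LAMB3 alone among these calls was lost, and COL5A1 (-1.244) and COL8A1 (1.207) were gained. COL1A1, LAMA5 and LAMC1, none of them SDE, turned in sign with this correction. A pass of the mean filter can come from 1 line alone, so these shares describe the chains that passed and not all 55.

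COL4A1 was measured at 26.3, 31.9 and 31.5 FPKM in CFPAC-1 and at 0.0831, 0.0849 and 0.0130 FPKM in BxPC-3. COL4A2 was measured at 70.2, 90.3 and 93.8 FPKM in CFPAC-1 and at 0.0644, 0.0830 and 0.0536 FPKM in BxPC-3. The BxPC-3 values were all below 0.1 FPKM, and no library of one line came near the other. The log2FC (the difference of log2(FPKM + 1), with its standard error, SE) was 4.86 (SE 0.0878, limma adjusted p = 9.5e-08) for COL4A1 and 6.32 (SE 0.113, limma adjusted p = 9.5e-08) for COL4A2. The pair that faces outward from the X chromosome went the other way. COL4A5 was measured at 16.9, 16.6 and 17.3 FPKM in BxPC-3 and at 1.13, 1.54 and 1.62 FPKM in CFPAC-1, with log2FC = -2.89 (SE 0.0885, limma adjusted p = 4e-07). COL4A6 was measured at 28.3, 28.5 and 27.2 FPKM in BxPC-3 and at 1.20, 1.25 and 1.32 FPKM in CFPAC-1, with log2FC = -3.69 (SE 0.0517, limma adjusted p = 6.4e-08). COL4A3 and COL4A4, the remaining collagen IV chains, did not exceed 0.0234 and 0.313 FPKM in any of the 12 libraries.

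Among laminins, LAMB2, the beta chain that can take the place of LAMB1, was measured at 6.33, 7.99 and 8.54 FPKM in CFPAC-1 and at 0.00855 FPKM or less in BxPC-3 (log2FC 3.09, SE 0.103, limma adjusted p = 5.3e-07). LAMB3 was measured at 98.9, 108 and 97.4 FPKM in CFPAC-1 and at 46.7, 45.6 and 40.8 FPKM in BxPC-3, a log2FC of 1.18, which was 0.41 and no longer SDE after correction for GC content and gene length. LAMA3, an alpha chain of the same trimer, had the opposite sign, with 16.1, 20.1 and 18.5 FPKM in CFPAC-1 and 30.3, 30.3 and 30.0 FPKM in BxPC-3 (log2FC -0.71, and -0.56 after correction, not SDE). The ratio of LAMB3 to LAMA3 within a library was 5.6 ± 0.466 (SD, n = 3) in CFPAC-1 and 1.47 ± 0.0947 (SD, n = 3) in BxPC-3. It is not corrected for GC content, which is 58.9% for LAMB3 and 50.7% for LAMA3. LAMB1 and LAMC1, the chains of the laminins of most other tissues, did not pass the adjusted p, with log2FC of 0.20 and -0.09. LAMA5 was 66.2 ± 14 FPKM in CFPAC-1 and 42.9 ± 1.41 FPKM in BxPC-3 (SD, n = 3 each, log2FC 0.59, and -0.09 after correction). ADRM1, which shares exon bases with LAMA5 on the opposite strand, averaged 153 FPKM in CFPAC-1 and 98.7 FPKM in BxPC-3. Its part in the LAMA5 values was not tested. LAMC3 reached 0.886 to 1.07 FPKM in CFPAC-1, did not exceed 0.00548 FPKM in BxPC-3 and was below the mean filter.

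COL18A1, whose C-terminal fragment is endostatin, was measured at 16.7, 19.7 and 19.6 FPKM in CFPAC-1 and between 0.0718 and 0.112 FPKM in BxPC-3, with log2FC = 4.17 (SE 0.0752, limma adjusted p = 9.5e-08). It shares 1401 exon bases with SLC19A1 on the opposite strand, and whether counting used strand is not given in the sources used here. SLC19A1 averaged 6.70 FPKM in CFPAC-1 and 2.46 FPKM in BxPC-3, so the level of COL18A1 is uncertain by an amount that was not tested.

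Among the other chains, COL17A1, the collagen of the hemidesmosome, was measured at 176, 175 and 176 FPKM in BxPC-3 and at 8.18, 9.27 and 9.22 FPKM in CFPAC-1, with log2FC = -4.16 (SE 0.0627, limma adjusted p = 6.9e-08). COL7A1 was 23.7 ± 0.0935 FPKM in BxPC-3 and 1.55 ± 0.266 FPKM in CFPAC-1 (SD, n = 3 each, log2FC -3.28). COL12A1, a fibril-associated collagen, was measured at 28.0, 30.5 and 35.6 FPKM in BxPC-3 and at 0.354, 0.483 and 0.291 FPKM in CFPAC-1, with log2FC = -4.55 (SE 0.102, limma adjusted p = 1.6e-07). COL16A1 and COL27A1, a fibril-associated and a fibrillar chain, were lower in CFPAC-1 as well, with log2FC of -2.27 and -1.56. In the opposite direction, the beaded filament chains COL6A1 and COL6A2 averaged 11.7 and 13.3 FPKM in CFPAC-1 and 0.115 and 0.0117 FPKM in BxPC-3, with log2FC of 3.50 and 3.81. COL6A3, the chain that completes the common collagen VI trimer, did not exceed 0.0965 FPKM in any of the 12 libraries. The transmembrane COL13A1 was measured at 6.20, 6.94 and 7.20 FPKM in CFPAC-1 and was listed at 0 in 2 of the 3 BxPC-3 libraries, with 0.0230 FPKM in the other. COL9A2, known from cartilage, averaged 9.55 FPKM in CFPAC-1 and 0.934 FPKM in BxPC-3 (log2FC 2.45). COL8A1, COL5A1 and COL1A1 passed the adjusted p without reaching an absolute log2FC of 1, with values of 0.71, -0.69 and 0.53. After correction for GC content and gene length COL1A1 was -0.09 and did not pass the adjusted p. COL22A1 was 0.260 ± 0.0422 FPKM in CFPAC-1 and at most 0.0251 FPKM in BxPC-3, below the mean filter.

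The resistant lines were also set against each other. Of 23 chains tested, 8 were SDE higher in CFPAC-1-GR and 6 lower, or 60.9%, against 17.1% of the 12330 genes tested (10.3% higher and 6.80% lower). By the adjusted p alone 10 were higher and 9 lower, against 65.3% of all genes, and libraries did not overlap for 19 of the 23, against 71.0% of all genes. Here too a pass of the mean filter can come from 1 line alone, so these shares describe the chains that passed and not all 55. Collagen IV again separated the lines, with COL4A2 at 56.1, 61.6 and 67.0 FPKM in CFPAC-1-GR and 0.158, 0.122 and 0.156 FPKM in BxPC-3-GR (log2FC 5.77), and COL4A1 with a log2FC of 4.96. COL18A1, COL13A1, LAMB2, COL6A2 and COL6A1 were the other chains higher here that were higher between the parental lines too, with log2FC of 2.88, 2.80, 2.68, 2.31 and 1.98. COL5A1 was higher in CFPAC-1-GR by 1.86, while between the parental lines it had the opposite sign. COL17A1, COL12A1, COL7A1, COL16A1, COL4A6 and COL4A5 were lower in CFPAC-1-GR by log2FC of -4.26, -4.00, -3.32, -3.21, -2.78 and -2.53. LAMB3, COL9A2 and COL27A1, which were SDE between the parental lines, were not SDE between the resistant lines, with log2FC of 0.08, -0.45 and -0.68, and LAMB3 turned to the opposite sign with median-of-ratios and upper-quartile scaling. Both comparisons use the same 2 cell backgrounds, and resistant lines descend from parental ones, so the comparisons are not independent. Log2FC hardly varied with GC content in this comparison (rho = -0.0189 by Spearman across 12302 genes), and no call between the resistant lines was lost under any alternative run. Some were gained: COL1A1 (1.38) and COL27A1 (-1.24) with a pseudocount of 0.1, COL22A1 without the filter, and COL1A1 without CFPAC-1-GR replicate 1.

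**Figure D2:**
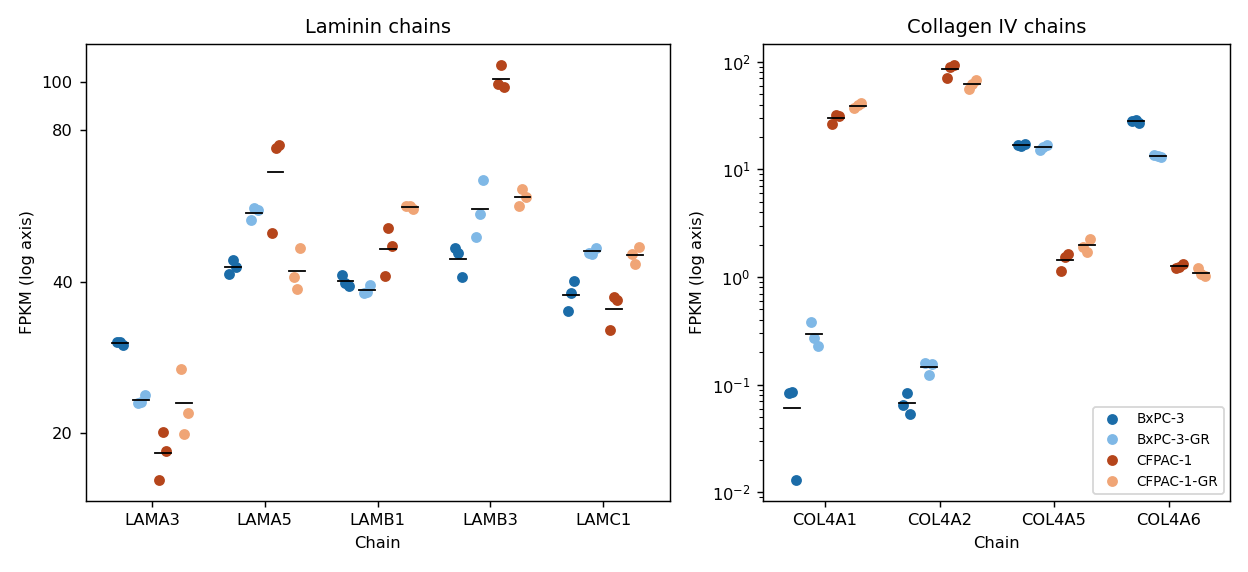
FPKM on a log axis of 5 laminin chains that averaged 1 FPKM or more in every line (left) and of 4 collagen IV chains (right) in each library, with 3 points per line and a bar at the mean. LAMB3 was higher in BxPC-3-GR than in BxPC-3 (49.1 to 63.9 against 40.8 to 46.7 FPKM) and lower in CFPAC-1-GR than in CFPAC-1 (56.6 to 61.2 against 97.4 to 108 FPKM), and COL4A6 was lower in BxPC-3-GR than in BxPC-3 (13.2 to 13.7 against 27.2 to 28.5 FPKM).

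Compared to BxPC-3, BxPC-3-GR had higher COL9A2 and lower COL5A1 and COL4A6. These were the SDE genes among the 15 chains tested, 1 higher and 2 lower, or 20.0%, against 7.76% of the 11710 genes tested (4.14% higher and 3.62% lower). COL9A2 passed the mean filter through BxPC-3-GR alone and COL5A1 through BxPC-3 alone. The share of 20.0% thus describes the chains that passed and not all 55. The median log2FC of the 15 chains was -0.05, and that of all genes tested was -0.05. By the adjusted p alone, 6 chains were higher, 5 lower and 4 did not pass, while 57.7% of all genes passed. Libraries of the lines did not overlap for 11 of the 15, against 66.1% of all genes. An exact permutation test of 1 gene with 3 libraries against 3 cannot give a two-sided p below 0.10, so the adjusted p values rest on the variance that limma shares across genes.

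Among laminins, LAMB3 was measured at 46.7, 45.6 and 40.8 FPKM in BxPC-3 and at 49.1, 54.6 and 63.9 FPKM in BxPC-3-GR (log2FC 0.32, limma adjusted p = 0.044). The limma adjusted p of LAMB3 was 0.052 after correction for GC content and gene length, 0.051 with upper-quartile scaling and 0.053 with a pseudocount of 0.1. LAMA3 was measured at 30.3, 30.3 and 30.0 FPKM and at 23.0, 23.1 and 23.8 FPKM (log2FC -0.36). Every resistant library was above every parental one for LAMB3 and below them for LAMA3. The ratio of LAMB3 to LAMA3 within a library was 1.36 to 1.54 in BxPC-3 and 2.14 to 2.68 in BxPC-3-GR. Ratios within a library do not depend on how libraries are scaled, but they are not corrected for GC content. LAMA5 and LAMC1 were higher in BxPC-3-GR by 0.35 and 0.28 on the log2 scale and LAMB1 did not pass the adjusted p (-0.05). After correction LAMA5 was 0.11 and did not pass (limma adjusted p = 0.091), while LAMC1 was 0.27 and passed. LAMA5 shares 244 exon bases with ADRM1 on the opposite strand, which averaged 98.7 FPKM in BxPC-3 and 41.8 FPKM in BxPC-3-GR.

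COL4A6 (chrX:108155607-108439497, GRCh38, minus strand) was measured at 28.3, 28.5 and 27.2 FPKM in BxPC-3 and at 13.7, 13.2 and 13.2 FPKM in BxPC-3-GR. The log2FC was -1.01 (SE 0.0479, limma adjusted p = 2.2e-05), close to the threshold of 1, and it was -0.97 and not SDE with median-of-ratios scaling. COL4A5, its divergent neighbor, was measured at 16.9, 16.6 and 17.3 FPKM in BxPC-3 and at 15.3, 16.1 and 16.9 FPKM in BxPC-3-GR. The ranges overlapped, and the log2FC of -0.07 did not pass the adjusted p. The ratio of COL4A5 to COL4A6 within a library was 0.581 to 0.636 in BxPC-3 and 1.11 to 1.28 in BxPC-3-GR. COL4A1 and COL4A2 remained below 0.4 FPKM in every BxPC-3-GR library, with means of 0.295 and 0.145 FPKM against 0.0604 and 0.0670 FPKM in BxPC-3, and were below the mean filter, as were LAMB2, LAMC3 and COL18A1.

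COL9A2 (chr1:40300487-40317816, minus strand) was measured at 0.976, 1.07 and 0.751 FPKM in BxPC-3 and at 9.63, 10.3 and 9.46 FPKM in BxPC-3-GR. No other tested collagen or laminin gene had a larger log2FC in this pair, at 2.48 (SE 0.0772, limma adjusted p = 5.1e-06). COL9A1 and COL9A3, with which COL9A2 forms collagen IX in cartilage, stayed at 0 and at or below 0.715 FPKM in all 12 libraries. COL5A1, a regulatory chain of collagen I fibrils, was measured at 2.89, 2.32 and 2.29 FPKM in BxPC-3 and at 0.0413, 0.0211 and 0.0524 FPKM in BxPC-3-GR. The log2FC was -1.75 (SE 0.0773, limma adjusted p = 1.8e-05), and without BxPC-3 replicate 1 its mean fell below 1 FPKM and it was not tested. Its partner COL5A2, below the mean filter, was measured at 0.581, 0.679 and 0.774 FPKM in BxPC-3 and at 0.0620, 0.0241 and 0.0461 FPKM in BxPC-3-GR. COL16A1 was measured at 6.07, 5.49 and 5.67 FPKM in BxPC-3 and at 11.7, 12.1 and 13.3 FPKM in BxPC-3-GR. It lay just under the threshold, with log2FC = 0.99 (SE 0.0660, limma adjusted p = 7.6e-05), and was SDE with a pseudocount of 0.1, with median-of-ratios scaling and without BxPC-3 replicate 1, BxPC-3-GR replicate 1 or BxPC-3-GR replicate 2.

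The epithelial attachment collagens had smaller differences, with COL17A1 at 136, 137 and 140 FPKM in BxPC-3-GR (log2FC -0.35) and COL7A1 at 26.8, 28.1 and 29.3 FPKM (log2FC 0.23). After correction for GC content and gene length COL7A1 was 0.07 and did not pass the adjusted p. COL27A1 averaged 1.59 FPKM in BxPC-3-GR and 2.97 FPKM in BxPC-3 (log2FC -0.62). COL12A1 and COL8A1 did not pass the adjusted p, with log2FC of -0.14 and 0.27. COL12A1 passed it after correction (-0.22, limma adjusted p = 0.044). COL1A1 averaged 0.727 FPKM in BxPC-3 and 1.09 FPKM in BxPC-3-GR and was below the mean filter over the 6 libraries. COL6A1 averaged 0.115 and 0.499 FPKM, while COL6A2, COL13A1 and COL22A1 did not exceed 0.0289 FPKM in any BxPC-3 or BxPC-3-GR library.

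Compared to CFPAC-1, CFPAC-1-GR had lower COL6A2, COL6A1 and COL18A1, and by limma 0 chains were SDE higher, although 7 had a positive log2FC at an unadjusted p below 0.05. The lower ones were 3 of 20 chains tested, or 15.0%, against 32.2% of the 12051 genes tested (20.5% higher and 11.7% lower). The median log2FC was -0.27 over the 20 chains and 0.13 over all genes tested. By the adjusted p alone, 6 chains were higher, 10 lower and 4 did not pass, while 79.6% of all genes passed. Libraries did not overlap for 18 of the 20 chains, against 82.1% of all genes. In this pair the log2FC of all genes fell with gene GC content (rho = -0.777 by Spearman across 12030 genes, a description since genes are no replicates), and hardly varied with it in the BxPC-3 pair (rho = 0.0388 across 11685 genes). The GC content of the 20 chains ran from 46.8% to 67.2%, and values below are given with the value after a spline correction for GC content and gene length. The 3 calls were all lost with this correction, while COL1A1 and COL5A1 became SDE higher and COL8A1 SDE lower.

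COL6A2 was measured at 10.7, 15.0 and 14.3 FPKM in CFPAC-1 and at 3.36, 4.13 and 4.54 FPKM in CFPAC-1-GR. COL6A1 was measured at 10.1, 12.3 and 12.7 FPKM and at 3.89, 5.40 and 5.63 FPKM. The resistant libraries lay below the parental ones for both chains, which lie near each other on chromosome 21. The log2FC was -1.51 for COL6A2 (SE 0.145, limma adjusted p = 6.9e-05, GC content 66.4%) and -0.68 after correction. The log2FC was -1.09 for COL6A1 (SE 0.142, limma adjusted p = 0.00032, GC content 63.5%), -0.30 after correction and -0.96 without CFPAC-1-GR replicate 1, where it was not SDE. COL18A1 was measured at 16.7, 19.7 and 19.6 FPKM in CFPAC-1 and at 8.09, 7.88 and 9.40 FPKM in CFPAC-1-GR, with log2FC = -1.06 (SE 0.0975, limma adjusted p = 5.7e-05, GC content 67.2%) and -0.35 after correction. Over the same pair SLC19A1, which overlaps it, averaged 6.70 and 2.14 FPKM.

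**Figure D3:**
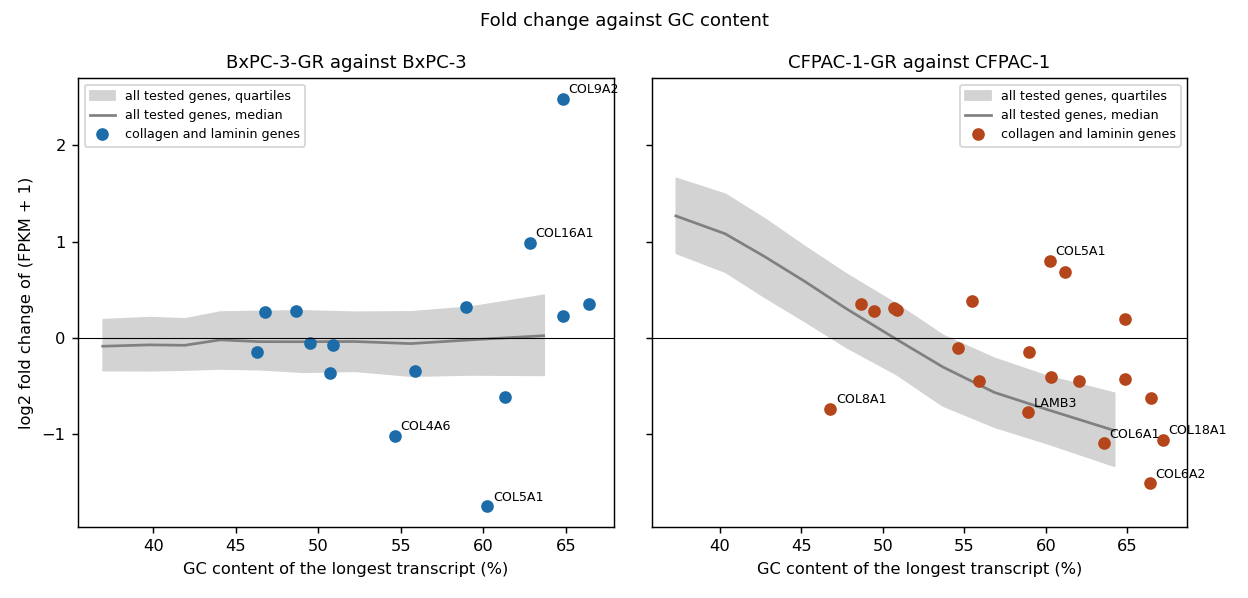
Log2FC of log2(FPKM + 1) against the GC content of the longest transcript for the collagen and laminin genes (points, with names where the absolute log2FC was above 0.7) and for all tested genes (gray line, median of each decile of genes by GC content, shaded between the quartiles). In CFPAC-1-GR against CFPAC-1 the median of all genes ran from 1.27 in the lowest decile of GC content to -0.96 in the highest, and COL8A1 lay below the line for their GC content while COL5A1 and COL1A1 lay above it.

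Among laminins, LAMB3 and LAMA5 had lower levels in CFPAC-1-GR, and LAMA3 did not. LAMB3 was measured at 98.9, 108 and 97.4 FPKM in CFPAC-1 and at 56.6, 61.2 and 58.9 FPKM in CFPAC-1-GR, a log2FC of -0.77 that was -0.13 after correction. It was not SDE, but became SDE lower with median-of-ratios and upper-quartile scaling. LAMA3 was measured at 16.1, 20.1 and 18.5 FPKM and at 26.8, 19.9 and 22.0 FPKM, with overlapping ranges and a log2FC of 0.31 that did not pass the adjusted p and was 0.0037 after correction. The ratio of LAMB3 to LAMA3 within a library was between 5.28 and 6.13 in CFPAC-1, and in CFPAC-1-GR between 2.11 and 3.07. LAMA5, LAMB2, LAMB1 and LAMC1 had log2FC of -0.62, -0.41, 0.28 and 0.35, and -0.05, 0.20, 0.01 and -0.01 after correction. LAMA5 became SDE lower with upper-quartile scaling (-1.12). ADRM1, which overlaps LAMA5 on the opposite strand, averaged 153 FPKM in CFPAC-1 and 62.5 FPKM in CFPAC-1-GR. LAMC3 averaged 1.0 FPKM in CFPAC-1 and 0.462 FPKM in CFPAC-1-GR and was below the mean filter.

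COL4A1 and COL4A2 differed from each other in this pair. COL4A1 was measured at 26.3, 31.9 and 31.5 FPKM in CFPAC-1 and at 36.9, 39.5 and 41.2 FPKM in CFPAC-1-GR, with log2FC = 0.38 (SE 0.0956, limma adjusted p = 0.0083), which was 0.48 after correction and -0.10 with upper-quartile scaling. COL4A2 was measured at 70.2, 90.3 and 93.8 FPKM and at 56.1, 61.6 and 67.0 FPKM, with log2FC = -0.45 (SE 0.128, limma adjusted p = 0.015) and -0.03 after correction. The ratio of COL4A2 to COL4A1 was between 2.67 and 2.97 in CFPAC-1, and in CFPAC-1-GR between 1.52 and 1.63. The GC content of COL4A2 is 62.0% and that of COL4A1 55.4%. COL4A5 averaged 1.43 and 1.96 FPKM and COL4A6 1.26 and 1.10 FPKM, with log2FC of 0.29 and -0.11, neither SDE, and 0.05 and 0.04 after correction, so that COL4A6 turned in sign.

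Of the fibrillar chains, COL1A1 was measured at 1.26, 1.57 and 1.65 FPKM in CFPAC-1 and at 2.68, 3.06 and 3.32 FPKM in CFPAC-1-GR, log2FC 0.69 (SE 0.0945, limma adjusted p = 0.00042) and 1.23 after correction. COL5A1 was measured at 0.948, 1.27 and 1.31 FPKM and at 2.25, 2.93 and 3.23 FPKM, a log2FC of 0.80 and 1.27 after correction. Both had all resistant libraries above the parental ones, and the pseudocount of 1 understates changes at these levels. COL8A1 was measured at 3.14, 5.86 and 3.66 FPKM and at 2.36, 1.89 and 1.96 FPKM, a log2FC of -0.73 and -1.31 after correction. COL9A2, COL17A1, COL13A1 and COL7A1 had log2FC of -0.42, -0.44, -0.14 and 0.20, and 0.46, -0.12, 0.44 and 0.82 after correction, so that COL9A2 and COL13A1 turned in sign. COL12A1, COL16A1, COL22A1 and COL27A1 were below the mean filter in this pair, with means of 0.376 and 0.820 FPKM for COL12A1, 0.399 and 0.447 for COL16A1, 0.260 and 1.23 for COL22A1 and 0.343 and 0.616 for COL27A1 in CFPAC-1 and CFPAC-1-GR.

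**Figure D4:**
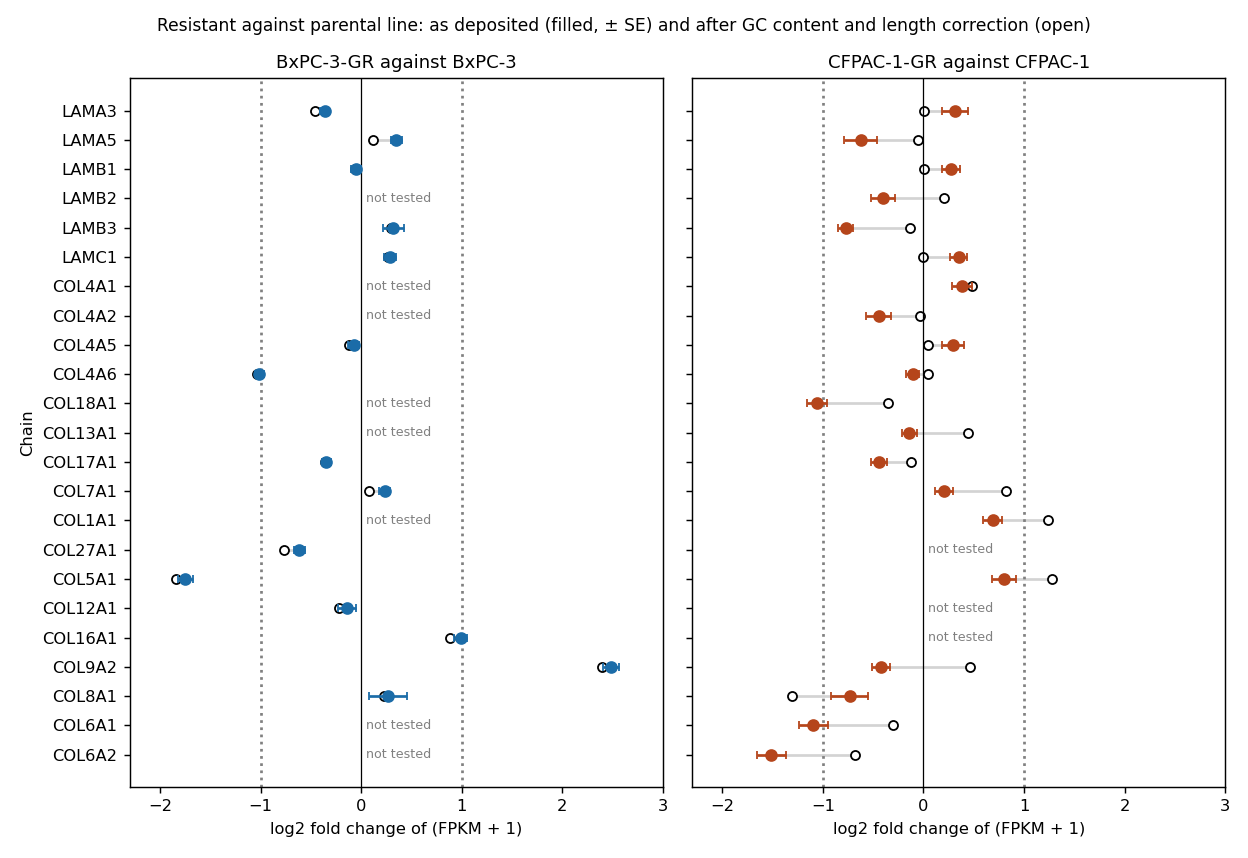
Log2FC of log2(FPKM + 1) in the resistant against the parental line for each tested chain, as deposited (filled points with the standard error) and after correction for GC content and gene length (open points), with dotted lines at -1 and 1. In BxPC-3-GR some corrected values lay close to the deposited ones (LAMB3 0.32 and 0.30, COL9A2 2.48 and 2.40). Others moved there (LAMA5 from 0.35 to 0.11, COL7A1 from 0.23 to 0.07). Larger moves occurred in CFPAC-1-GR (COL6A2 from -1.51 to -0.68, COL1A1 from 0.69 to 1.23).

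The response of the lines was compared by an interaction term over all 12 libraries, as log2FC in CFPAC-1-GR minus log2FC in BxPC-3-GR. Of 23 chains tested, COL5A1 was SDE higher in this difference (2.55) and 6 were SDE lower, or 30.4% in all, against 38.0% of the 12210 genes tested (23.6% higher and 14.4% lower). By the adjusted p alone 8 were higher and 10 lower, against 76.6% of all genes. COL9A2 differed by -2.90 (SE 0.119, limma adjusted p = 8.5e-09). This gene, COL5A1 and COL8A1 (-1.0) were also SDE after the correction, at -1.91, 3.15 and -1.53. COL6A1, COL6A2, COL18A1 and LAMB3 differed by -1.52, -1.499, -1.29 and -1.09, and none of these was SDE after correction (-0.61, -0.51, -0.39 and -0.41). COL6A1, COL6A2 and COL18A1 passed the mean filter through the CFPAC-1 lines alone. On this scale their difference mainly repeats the change in CFPAC-1-GR. COL8A1 was not SDE in the difference when 1 of 6 libraries was left out (-0.79 to -0.98), nor LAMB3 without BxPC-3-GR replicate 3 (-0.99). COL5A1 was lower in every BxPC-3-GR library and higher in every CFPAC-1-GR library than in the parental libraries, and LAMB3 was higher in the former and lower in the latter.

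Genes that make, bind or regulate these chains were read from the same fits, in which 4.14% of all genes were SDE higher and 3.62% lower in BxPC-3-GR, and 20.5% and 11.7% in CFPAC-1-GR. Of 33 collagen modifying, secreting and crosslinking genes in the table, 19 were tested in BxPC-3-GR and 3 were SDE, all higher: FKBP10 (1.10) and P4HA1 (1.07), which act in collagen folding and prolyl hydroxylation, and LOX (1.09), which crosslinks collagen. This count fell to 1 without BxPC-3-GR replicate 3 and was 2 without BxPC-3 replicate 1 or 3. In CFPAC-1-GR, 21 were tested, with 3 higher (PLOD2, a lysyl hydroxylase, 1.80; P4HA1 1.42; MIA3, a collagen export receptor, 1.09) and 3 lower, FKBP10, PLOD3 and COLGALT1, which fell outside the naming rule and are named after their values were seen. After correction none of these 6 calls in CFPAC-1-GR was kept, and P3H1, a prolyl hydroxylase, which was not SDE as deposited (-0.87), was lower (-1.13). Of 22 basement membrane partners, 8 were tested in BxPC-3-GR and by limma 0 were SDE in either direction, while 3 higher and 3 lower passed an unadjusted p of 0.05. Of 11 tested in CFPAC-1-GR, 2 were higher, DST, the plakin that links hemidesmosomes to keratin (2.64, 1.12 after correction), and NTN4, a laminin-related netrin (1.88, 1.65 after correction). TINAGL1 (-1.51) and PLEC (-1.19), the latter also outside the naming rule, were lower, and neither was SDE after correction.

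Of 16 integrins and other matrix receptors, 10 were tested in BxPC-3-GR and by limma 0 were SDE, while 4 higher and 3 lower passed an unadjusted p of 0.05. In CFPAC-1-GR 11 were tested, with 3 higher and 3 lower, of which the naming rule gave ITGA3 (-1.37), ITGA2 (1.36) and SDC1 (-1.36). ITGB1, ITGA6 and BCAM, named after their values were seen, had 1.34, 1.08 and -1.30. After correction none of these 6 calls was kept, and ITGA1, not SDE as deposited (0.26), was lower (-1.25). Of 11 transforming growth factor beta pathway and target genes, 9 were tested in BxPC-3-GR and 1 was lower, PMEPA1 (-1.15). Of 10 tested in CFPAC-1-GR, SKIL (2.06) and TGFBR2 (1.13) were higher and TGFB1 was lower (-2.04). After correction TGFB1 was still SDE (-1.11), whereas SKIL (0.69) and TGFBR2 (0.81) were not. In the order of these 4 lists, upper-quartile scaling gave 1, 2, 0 and 1 higher and 9, 6, 4 and 3 lower in CFPAC-1-GR. Median log2FC of these 4 lists was 0.06, 0.03, -0.08 and -0.04 in BxPC-3-GR, where that of all genes was -0.05, and -0.55, -0.71, -0.15 and -0.13 in CFPAC-1-GR, where that of all genes was 0.13. Among the markers, 0 of 6 epithelial genes were SDE by limma in BxPC-3-GR (3 higher at an unadjusted p of 0.05) and 2 were lower in CFPAC-1-GR, where KRT18 and KRT19 fell by 1.08 and 1.57 on the log2 scale. Neither was SDE after correction (-0.56 and -0.62). Of the mesenchymal markers, VIM was lower in BxPC-3-GR (-2.06) and CFPAC-1-GR (-1.11), and CDH2 was higher in each (1.10 and 1.19). FN1 was SDE higher in CFPAC-1-GR (1.08) and had a log2FC of 0.68 in BxPC-3-GR, not SDE. After correction CDH2 (0.59) and FN1 (-0.15) were not SDE in CFPAC-1-GR, while the calls of VIM and that of CDH2 in BxPC-3-GR were kept. The part of these marker changes in the collagen and laminin values was not tested. In bulk libraries, fewer cells with a transcript and fewer transcripts per cell cannot be told apart.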

How the data were processed

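For 58302 genes and 12 libraries, the authors deposited FPKM values in 1 table, and every library column was used. The study's methods name GRCh38 with Ensembl release 91. The submitters' processing notes list Trimmomatic 0.27, FastQC 0.10.1, TopHat2 2.0.8 and the builds hg19 and GRCh38. The counting program and its use of strand are not given in the sources used here. Gene positions in the table were those of GRCh38 and were compared with GENCODE release 29, which held 58039 of the genes and gave GC content (longest transcript), exon length and overlaps. Of the low values, 58.7% to 69.5% per library were whole multiples of 1 fragment within 0.05 fragments, so read counts were not recovered and no count test was run.

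A test on counts had been planned, with limma named for FPKM. The log2(FPKM + 1) values were therefore fitted with lmFit and eBayes (limma 3.58.1, R 4.3.3), without a block. Genes entered a fit if the 6 libraries compared (12 for the interaction) averaged 1 FPKM or more, whatever their type. SDE genes passed a Benjamini-Hochberg adjusted p of 0.05 over all genes fitted and exceeded 1 in absolute log2FC. This scale understates changes of low genes. SD values are over 3 libraries.

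The genes, gene lists and tests were chosen with earlier results of these data known. Collagen and laminin genes averaging 1 FPKM or more in a line were named, and from each partner list at most the 3 SDE genes with the largest absolute log2FC in each resistant line. Of 56 genes with such symbols 1 is not reported here, nor is 1 gene of a partner list, and counts over the members leave them out. Alternatives changed the pseudocount to 0.1, dropped the filter, fitted all 12 libraries together, blocked on the replicate number, corrected each library for GC content and exon length by splines (5 degrees of freedom each, alone and with the block), rescaled libraries by median of ratios or upper quartile, or left out each library. Applying them to the partner lists was chosen after seeing the data. The fits were tested on simulated data with 200 changed genes per comparison. Recovery was 100% (11704 genes, BxPC-3 pair), 99.5% (12041 genes, CFPAC-1 pair), 100% (11858 genes, parental lines), 99.5% (12343 genes, resistant lines) and 98.5% (12230 genes, interaction), with 0 false calls in each. Planted changes all exceeded 1 on the log2 scale of FPKM and the noise was set alike for all genes. High recovery was thus built in, and the rates do not cover calls near the threshold. They come from simulated data without a trend with GC content. Whether these rates hold for the deposited values was not tested. In those values log2FC varied with GC content in the CFPAC-1 pair and between the parental lines. Tables and plots were made in Python 3.11.15 with numpy 2.4.6, pandas 2.3.3 and matplotlib 3.10.9.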

Additional observations from a re-analysis of the deposited data

Results flagged for a closer look

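Of the collagen and laminin genes, 7 were called in the interaction term, given here as log2FC in CFPAC-1-GR minus log2FC in BxPC-3-GR. They were COL9A2 (-2.904), COL6A1 (-1.518), COL6A2 (-1.499), COL18A1 (-1.288), LAMB3 (-1.094), COL8A1 (-1.0) and COL5A1 (2.55). After correction for GC content and gene length COL9A2, COL8A1 and COL5A1 were still called. COL6A1, COL6A2 and COL18A1, which were not, stayed below 1 FPKM in every BxPC-3 and BxPC-3-GR library. They passed the mean filter through the CFPAC-1 lines alone, and their difference mainly repeats the change in CFPAC-1-GR. COL8A1 was not called without BxPC-3 replicate 2, BxPC-3-GR replicate 2 or 3, CFPAC-1 replicate 2, or CFPAC-1-GR replicate 2 or 3 (-0.79 to -0.98), and LAMB3 was not called without BxPC-3-GR replicate 3 (-0.99).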

How the results depend on the processing

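The 43 calls of collagen and laminin genes over the 5 comparisons were refitted 636 times under the alternatives. Direction and call were kept in 611, the call was lost in 25 and the direction turned in 0. With correction for GC content and length, with or without the replicate block, CFPAC-1-GR had 2 chains higher and 1 lower than CFPAC-1 (0 and 3 as reported), and the difference of response had 4 higher and 2 lower (1 and 6 as reported). The chains gained in the difference were COL1A1 (1.07), COL27A1 (1.53) and COL4A6 (1.09). With a pseudocount of 0.1, 2 chains were higher in BxPC-3-GR (1 as reported), 1 was higher in CFPAC-1-GR and 3 were higher in the difference. With median-of-ratios scaling 2 chains were higher and 1 lower in BxPC-3-GR (1 and 2 as reported), and with upper-quartile scaling 6 were lower in CFPAC-1-GR. In the difference, median-of-ratios scaling added COL16A1 (-1.07) and LAMA5 (-1.33) as lower. Upper-quartile scaling added COL4A2 (-1.04), COL16A1 (-1.07) and LAMA5 (-1.44) there. The cause was not tested.

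With 1 library left out, counts for BxPC-3-GR ranged from 1 to 2 higher and 1 to 2 lower. Those for CFPAC-1-GR ranged from 0 to 0 higher and 2 to 3 lower, and from 1 to 1 higher and 4 to 7 lower in the difference. Between the parental lines they stayed at 9 and 7, and between the resistant lines at 8 to 9 and 6. The drop to 1 lower in BxPC-3-GR came without BxPC-3 replicate 1, when COL5A1 was below the filter.

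Relative to FPKM as deposited, median-of-ratios and upper-quartile scaling shifted the median log2FC of all genes by -0.27 and -0.42 in CFPAC-1-GR, 0.16 and 0.29 between the parental lines, -0.15 and -0.13 between the resistant lines and -0.28 and -0.37 in the difference. The share of all calls that were higher went from 63.7% to 41.9% and 32.1%, from 44.6% to 52.2% and 57.9%, from 60.3% to 47.1% and 48.6%, and from 62.1% to 43.8% and 39.1%. With the GC content and length correction the share was 54.1% in CFPAC-1-GR and 50.6% in the difference. No called chain turned in sign, but COL4A1, COL4A5, COL7A1, LAMA3, LAMB1 and LAMC1, none of them called, turned negative in CFPAC-1-GR with upper-quartile scaling.

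Replicate numbers are shared by the lines, but deviations of samples with the same number correlated between -0.134 and 0.0895, so the numbers were not taken as pairs. With the replicate block alone no count moved, with 1 chain higher and 2 lower for BxPC-3-GR, and 0 and 3 for CFPAC-1-GR, but LAMB3 in BxPC-3-GR (not called) had a limma adjusted p of 0.1 (0.044 without the block). Depth limits the chains near 1 fragment (0.00202 to 0.0251 FPKM), such as COL6A2, COL13A1 and LAMB2 in the BxPC-3 lines.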
